A study of Mus musculus with 15 samples.

Results

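Polycomb peaks at Lef1, Fst and Bcl11a were described in mouse cells at 2 stages of differentiation. The loci were chosen by measured values, the peak scores of Mel18 in embryonic stem cells (ESCs) and the absence of an overlapping Mel18 peak in early cardiac mesoderm precursors (MES). Members were all deposited peaks that overlapped 3 windows of the mm9 build, namely chromosome 3 from 130.79 to 130.94 Mb for Lef1, chromosome 13 from 115.22 to 115.27 Mb for Fst, and chromosome 11 from 23.95 to 24.1 Mb for Bcl11a. The windows held 30 of the 30692 peaks in the 5 lists used. These were 9 of 6593 ESC Mel18 peaks, 4 of 4165 MES Mel18 peaks, 3 of 3679 MES Cbx2 peaks, 8 of 8641 MES Ring1b peaks and 6 of 7614 MES RYBP peaks. Because the high ESC score and the missing MES Mel18 peak chose the loci, both are descriptions, with no test. All ESC-only peaks, meaning ESC Mel18 peaks that overlap no MES Mel18 peak, served as the background.

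All 5 lists came from chromatin of E14Tg2A, an established mouse ESC line, or of its derivatives, and the labels name no genetic change in these samples. ESCs were held undifferentiated with LIF and kinase inhibitors, and MES were derived from them with BMP4, at a dose that depended on the batch of BMP4. Each list came from 1 ChIP-seq sample, so no difference between states or subunits has a replicate check. The same lot of Mel18 antibody served in ESCs and MES, whereas Cbx2, Ring1b and RYBP each had an antibody of their own. The cell types are those of the labels and were not checked against marker genes. Read depth was unknown, so a missing peak shows that none was called, and does not show that the protein was absent. How peak number and width went with depth was not tested.

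Polycomb repressive complex 1 (PRC1) is a family of chromatin complexes that keep developmental genes silent. Ring1b is the catalytic subunit, which ubiquitinates histone H2A, and Mel18, also named Pcgf2, is a PCGF subunit that pairs with it. Cbx2 belongs to canonical PRC1 and carries a chromodomain that binds the histone mark left by Polycomb repressive complex 2, and RYBP takes the place of CBX subunits in variant PRC1. In mouse cells PRC1 is mostly found at stretches rich in unmethylated CpG. Lef1 encodes an HMG-box transcription factor that acts with beta-catenin in Wnt signalling. Fst encodes follistatin, a secreted protein that binds and blocks activin. Bcl11a encodes a zinc-finger repressor known for silencing embryonic and fetal globin genes and for its part in lymphoid and neural development.

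Because PRC1 goes with CpG, the 250 bases before the annotated starts of Lef1 and Bcl11a are shown with each CpG in capitals. They are RefSeq sequences of the GRCm38.p6 build, on the plus strand, at chr3:131110047-131110296 for the first of 4 listed Lef1 starts and at chr11:24080445-24080694 for the 1 listed Bcl11a start. The peaks are in mm9, another build, so whether a peak covered these bases was not read from the coordinates. RefSeq promoter entries matched 2 of the 3 genes.
Lef1: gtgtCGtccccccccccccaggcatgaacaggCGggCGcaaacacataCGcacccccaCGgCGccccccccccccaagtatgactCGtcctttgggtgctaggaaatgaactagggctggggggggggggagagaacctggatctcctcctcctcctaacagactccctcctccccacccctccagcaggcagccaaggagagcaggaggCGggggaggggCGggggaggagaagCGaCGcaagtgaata
Bcl11a: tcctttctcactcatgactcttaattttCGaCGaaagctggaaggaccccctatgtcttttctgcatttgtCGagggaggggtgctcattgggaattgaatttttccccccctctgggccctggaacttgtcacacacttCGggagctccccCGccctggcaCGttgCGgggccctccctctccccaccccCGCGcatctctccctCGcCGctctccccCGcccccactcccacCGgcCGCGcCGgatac
The Lef1 stretch held 11 CpG and the Bcl11a stretch 16, against a median of 6 in 32851 stretches of the same length. Among all stretches, 35.6% held at least 11 and 25.4% at least 16. CpG is its own reverse complement, so both strands give the same count. The second Lef1 start, 26 bp after the first, had 14 CpG in its 250 bases, and the third, 2.49 kb after the first, had 6. The last Lef1 start, 46.0 kb after the first, had 5 CpG in its 250 bases, below the median.

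Mel18 occupied broad stretches at all 3 loci in ESCs. At Fst, a single ESC Mel18 peak of 5607 bp spanned 115245755 to 115251361, and the nearest other ESC Mel18 peak on the chromosome lay 639.9 kb away. At Lef1, the leading peak of 4797 bp (130811764 to 130816560) was split by 86 bp from a peak of 3908 bp (130807770 to 130811677). Peaks of 594 and 730 bp lay further towards lower coordinates, so ESC Mel18 covered 10029 bp in the Lef1 window. At Bcl11a, the leading peak of 5178 bp (23977867 to 23983044) adjoined peaks of 2521 bp (23975302 to 23977822) and 1223 bp (23973999 to 23975221). The gaps between these 3 peaks were 44 and 80 bp, so they formed a nearly unbroken stretch of 9046 bp. The fourth Bcl11a peak, of 2552 bp, stood alone 79.9 kb further along (24062971 to 24065522). The leading peaks were wider than 95.6% (Lef1), 96.8% (Fst) and 96.3% (Bcl11a) of all ESC Mel18 peaks. The loci were chosen by score, however, and high-scoring peaks were wide. Median width was 6084 bp over the 303 ESC Mel18 peaks that scored 3100 or more, as the leading peaks did. Over the 14 of these that were ESC-only it was 6702 bp. All 3 leading peaks were narrower than both medians.

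The authors' score of each leading peak was 3100, a value at which scores piled up, and 303 ESC Mel18 peaks scored that or more. Of those 303 peaks, 14 (4.62%) overlapped no MES Mel18 peak, against 47.4% of all ESC Mel18 peaks. The other ESC Mel18 peaks of the windows ranged in score from 53.2 to 2023 on the authors' scale. Of the 14, 9 lay in 2 long domains on chromosomes 11 and 15, 1 on the mitochondrial genome and 4 elsewhere, 3 of these being the leading peaks of Fst, Bcl11a and Lef1. Just outside the choice was the other of the 4, a peak on chromosome 17 (8624676 to 8629149, 4474 bp) that scored 3100 and overlapped Ring1b, Cbx2 and RYBP peaks in MES. The next one, on chromosome 3 (148650117 to 148654015, 3899 bp), scored 2605 and overlapped a RYBP peak but neither Ring1b nor Cbx2.

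**Figure D1:**
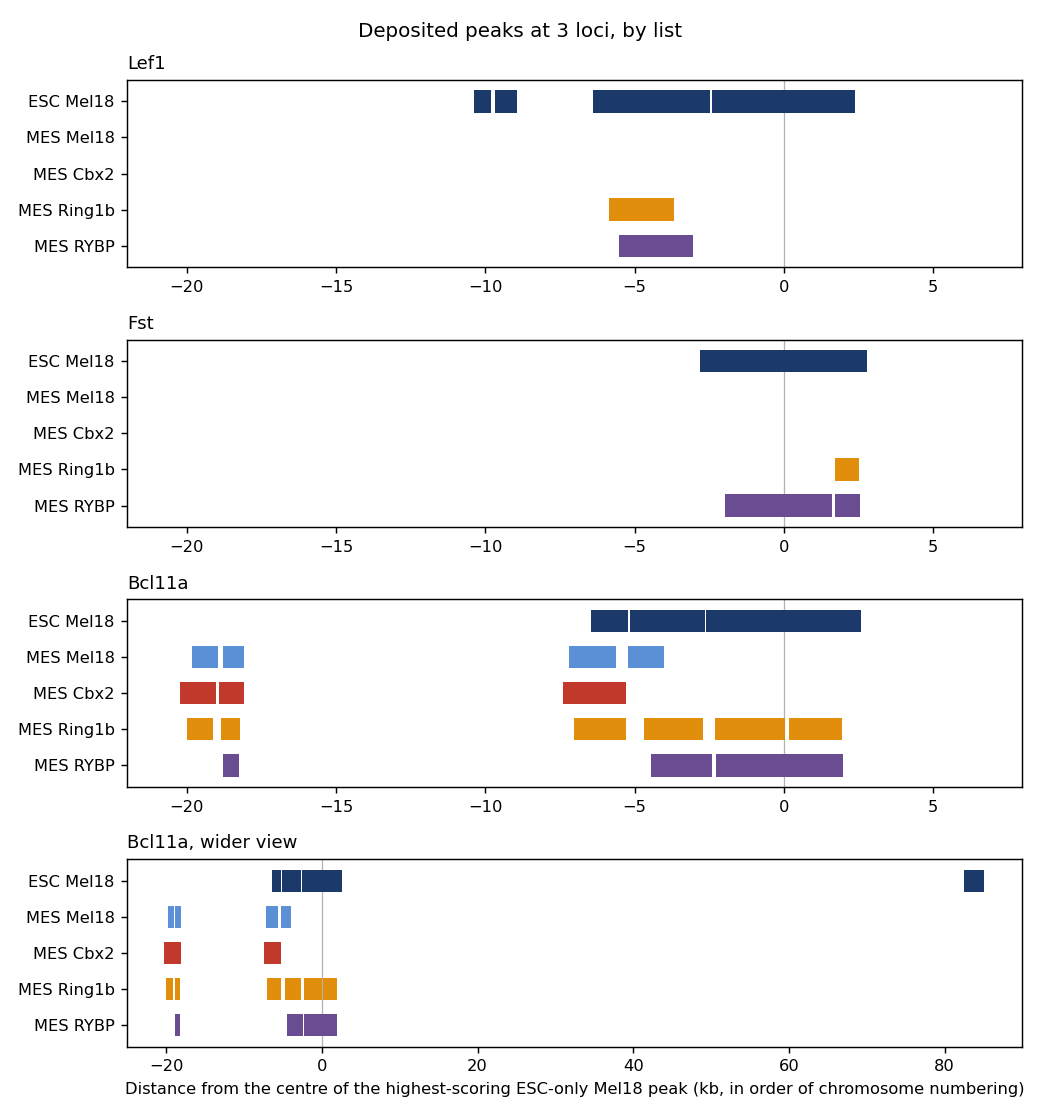
Deposited peaks of the 5 lists at Lef1, Fst and Bcl11a, with distance in kb from the centre of the highest-scoring ESC-only Mel18 peak on the x axis and 1 row per list; each bar is 1 peak, drawn to scale. The leading Lef1 peak has no MES peak beneath it, the Fst peak has 2 RYBP peaks and 1 short Ring1b peak, and at Bcl11a MES Mel18 and Cbx2 lie on the lower-coordinate flank while Ring1b and RYBP lie on the leading peak.

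The MES lists address which PRC1 subunits were found in MES where Mel18 was found in ESCs. The ESC data used here hold Mel18 alone of the PRC1 subunits, so whether the other subunits were already present in ESCs is not shown by these lists. Ring1b and RYBP peaks were present in all 3 windows, whereas MES Mel18 and Cbx2 peaks were present in the Bcl11a window alone. Lef1 had 1 Ring1b and 1 RYBP peak, Fst had 1 Ring1b and 2 RYBP peaks, and Bcl11a had 6 Ring1b and 3 RYBP peaks together with 4 MES Mel18 and 3 Cbx2 peaks. Of the 9 ESC Mel18 peaks, 5 overlapped a Ring1b peak, 4 a RYBP peak, 2 a MES Mel18 peak and 1 a Cbx2 peak. Over all ESC Mel18 peaks, 64.9% overlapped Ring1b, 61.6% RYBP and 50.8% Cbx2, and 47.4% overlapped no MES Mel18 peak. MES Mel18 and Cbx2 were thus less frequent among the 9 than over the whole list. The loci were chosen for a missing MES Mel18 peak, so nothing is read from that. The 7 that were ESC-only overlapped Ring1b in 3 cases, RYBP in 3, Cbx2 in 0 and none of these subunits in 4. Over all 3123 ESC-only peaks the shares were 32.3% for Ring1b, 36.3% for RYBP, 10.7% for Cbx2 and 54.1% for none. The counts over the 7 ESC-only peaks are few and lie near these ESC-only shares, and nothing particular to the loci is read from them.

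The leading Fst and Bcl11a peaks both overlapped Ring1b and RYBP without Cbx2, and the leading Lef1 peak overlapped no MES peak of any subunit. In the highest ESC score quartile, 148 peaks were ESC-only, and 62 of them (41.9%, exact Clopper-Pearson 95% interval 33.8 to 50.3) had Ring1b and RYBP without Cbx2. Ring1b was found at 61.5%, RYBP at 74.3% and Cbx2 at 17.6% of the 148. Another 18 (12.2%, interval 7.37 to 18.5) had none of the 3 subunits. The background differed in the 14 ESC-only peaks that scored 3100 or more. There Ring1b and RYBP without Cbx2 was found at 2 (14.3%), which were the leading Fst and Bcl11a peaks, and RYBP without Ring1b at 9 (64.3%), all in the 2 long domains. The leading Lef1 peak was the 1 of 14 (7.14%) with none, or 1 of the 4 outside those domains and the mitochondrial genome. Intervals cover counting error only, and 1 long stretch can give several peaks.

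At Lef1, the Polycomb peaks of MES lay beside the leading peak. The Ring1b peak (130808309 to 130810483, 2175 bp) and the RYBP peak (130808630 to 130811115, 2486 bp) both fell inside the neighbouring ESC Mel18 peak of 3908 bp. Ring1b covered 55.7% and RYBP 63.6% of that neighbour, and the bases shared by Ring1b and RYBP were 1854. The RYBP peak ended 648 bp and the Ring1b peak 1280 bp before the leading peak began. Because the gap between the ESC peaks was 86 bp, the outcome depended on where the caller split the stretch: with peaks of 1 list within 1 kb joined, the Lef1 stretch of 8791 bp overlapped 2 subunits, Ring1b and RYBP. The 2 small ESC peaks of 594 and 730 bp overlapped no MES peak. Over the whole window, 72.0% of the ESC Mel18 bases were covered by no MES list. The nearest MES Mel18 peak lay 335.1 kb from the leading peak and the nearest Cbx2 peak 334.3 kb, both towards higher coordinates and outside the window.

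At Fst, RYBP spanned most of the ESC Mel18 peak and Ring1b a short piece at its end. RYBP peaks of 3592 bp (115246595 to 115250186) and 825 bp (115250282 to 115251106), 95 bp apart, covered 4417 of the 5607 bases, or 78.8%. The single Ring1b peak was 777 bp wide (115250288 to 115251064), covered 13.9% of the ESC peak and ended 297 bp before its higher-coordinate edge. All of its bases were shared with RYBP, so 3640 bases (64.9%) had RYBP without Ring1b. The 2 RYBP peaks scored 92.0 and 71.4 on the authors' scale, above 37.1 and 23.8% of RYBP peaks, and dropped out when the upper 50% of each list by score was used. In that setting the leading Fst peak overlapped 1 subunit, Ring1b, and RYBP covered 0% of the ESC Mel18 bases. The Ring1b peak scored above 57.8% of Ring1b peaks. The nearest MES Mel18 peak lay 1162 kb and the nearest Cbx2 peak 1419 kb away.

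At Bcl11a, Ring1b peaks ran along the ESC Mel18 stretch, with Cbx2 at its lower-coordinate end and RYBP over most of the middle and leading ESC peaks. The leading peak was covered to 79.5% by 2 Ring1b peaks (23978149 to 23980513 and 23980648 to 23982396, of 2365 and 1749 bp). A RYBP peak of 4272 bp (23978181 to 23982452), with the end of another RYBP peak (23976009 to 23978051, 2043 bp), covered 86.1% of it. Ring1b and RYBP shared 4082 of its 5178 bases. The middle ESC peak, of 2521 bp, was covered to 78.3% by Ring1b, 72.0% by RYBP and 45.7% by MES Mel18, with no Cbx2 peak. On the lower-coordinate ESC peak of 1223 bp, Ring1b covered 97.1%, Cbx2 95.5% and MES Mel18 67.2%, and no RYBP peak was called. No base of the ESC Mel18 peaks carried both Cbx2 and RYBP peaks, and 444 bases carried Mel18, Ring1b and RYBP.

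Mel18 was called in MES on part of the Bcl11a stretch, 1414 bp from the leading peak. The MES Mel18 peaks there were 1545 bp (23973276 to 23974820) and 1204 bp (23975249 to 23976452), with scores of 119 and 51.2 on the authors' scale. The score of 51.2 was close to 50.01, the lowest of that list. With peaks within 1 kb joined, the Bcl11a stretch overlapped 3 subunits and MES Mel18 as well, so that it was no longer ESC-only. The isolated ESC peak from 24062971 overlapped no MES peak.

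The Bcl11a window also held MES peaks where ESC Mel18 had none. All 7 of these, among 21 MES peaks in the 3 windows, lay between 23960221 and 23962366, a span of 2146 bp that ended 11.6 kb before the first ESC Mel18 peak of the window. They were 2 MES Mel18 peaks (842 and 706 bp), 2 Cbx2 peaks (1199 and 841 bp), 2 Ring1b peaks (873 and 622 bp) and 1 RYBP peak (557 bp). All 4 lists shared 557 bases there, the whole RYBP peak. Across the whole MES Mel18 list, 33.7% of peaks overlapped no ESC Mel18 peak, so 2 of 4 in this window is no departure that can be read. The matching shares over the whole Cbx2, Ring1b and RYBP lists are not given here, so nothing is read from those counts or from the 7 of 21.

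**Figure D2:**
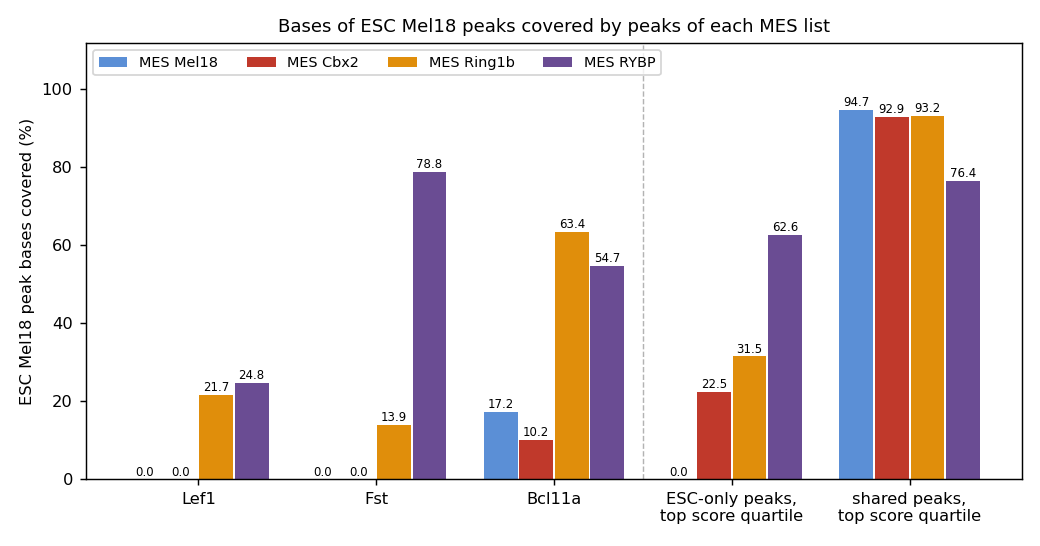
Share of ESC Mel18 peak bases (y axis, %) covered by peaks of each MES list, for all ESC Mel18 peaks in each window and, right of the dashed line, for the ESC-only and shared peaks of the highest ESC score quartile. MES Mel18 and Cbx2 bars are at 0 for Lef1 and Fst, and RYBP reaches 78.8% at Fst. Ring1b reaches 63.4% at Bcl11a, whose window holds both kinds of peak, against 31.5% over ESC-only and 93.2% over shared peaks.

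Covered bases, counted whatever the number of peaks, ordered the loci differently for each subunit. Ring1b covered 63.4% of the ESC Mel18 bases in the Bcl11a window, 21.7% in the Lef1 window and 13.9% in the Fst window. RYBP covered 78.8% at Fst, 54.7% at Bcl11a and 24.8% at Lef1. Ring1b or RYBP together covered 78.8% at Fst, 67.3% at Bcl11a and 28.0% at Lef1. RYBP covered more than Ring1b at Fst and Lef1, and less at Bcl11a, but at Fst and Bcl11a this order turned with the list rule. With the upper 50% of each list by score, RYBP covered 0% and Ring1b 13.9% at Fst, and RYBP covered 54.7% and Ring1b 31.0% at Bcl11a. With lists of equal length (3679 peaks each), the values at Fst were the same, and at Bcl11a RYBP covered 54.7% and Ring1b 10.3%. Over the 148 ESC-only peaks of the highest quartile, Ring1b covered 31.5%, Cbx2 22.5% and RYBP 62.6% of bases. Over the 1500 peaks of that quartile shared with MES Mel18, the shares were 93.2, 92.9 and 76.4%. Over the 14 ESC-only peaks that scored 3100 or more, Ring1b covered 10.1%, Cbx2 42.1% and RYBP 75.0%. Most of that set, 9 of the 14 peaks, lay in the 2 long domains, as did 4 of the 5 with a Cbx2 peak. The Fst values of 13.9, 0 and 78.8% were close to that set for Ring1b and RYBP, but the Fst peak is itself 1 of the 14. With lists of equal length, MES Mel18 covered 7.16% at Bcl11a, and the leading peak there overlapped 1 subunit, RYBP.

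As called, MES peaks on the leading ESC peaks were narrower than the ESC peaks themselves. At Fst, the Ring1b peak had 0.139 times and the widest RYBP peak 0.641 times the width of the ESC Mel18 peak. At Bcl11a, the widest Ring1b peak had 0.457 times and the widest RYBP peak 0.825 times the ESC width. The Lef1 leading peak had no MES peak to compare. The ratio has the ESC width below the line, and ESC peaks of the highest scores, from which the loci were chosen, were wide, so no rank is read from it. Among ESC-only peaks that scored 3100 or more, the median ratio was 0.465 for Ring1b (4 peaks) and 0.642 for RYBP (12 peaks), with the loci included. The Fst and Bcl11a ratios are themselves among those values, so nearness to these medians is partly built in and no likeness is read. In the highest quartile, whose ESC-only peaks had a median width of 2249 bp, the medians were 0.708 for Ring1b (91 peaks) and 0.830 for RYBP (110 peaks). At Bcl11a the Ring1b stretch was split by a gap of 134 bp into 2 peaks, which lowers its ratio. With peaks of 1 list within 1 kb joined, Ring1b there was 8970 bp and RYBP 6444 bp wide. The joined ESC Mel18 stretch was 9046 bp, so Ring1b was nearly as wide. At Fst the joined widths were 777 bp for Ring1b and 4512 bp for RYBP, against 5607 bp. Over the peaks of the highest quartile shared with MES Mel18, the median ratio was 1.14 for Ring1b, 0.814 for RYBP, 1.63 for Cbx2 and 1.31 for MES Mel18. With 1 sample per list these widths give no test.

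Set against the list each came from, ESC Mel18 peaks of the windows were mostly broad. The MES Mel18 and Cbx2 peaks, all in the Bcl11a window, were narrow as called. Median width was 1103 bp in the ESC Mel18 list, and 7 of the 9 ESC Mel18 peaks were wider. All 4 MES Mel18 peaks, at 706 to 1545 bp, were narrower than the list's median of 1855 bp, and all 3 Cbx2 peaks, at 841 to 2098 bp, were narrower than 2508 bp. Neighbours lay close, with gaps of 170 and 428 bp in MES Mel18 and 106 bp in Cbx2. Joined within 1 kb, MES Mel18 on the Bcl11a stretch was 3177 bp wide and Cbx2 stayed at 2098 bp. The MES Mel18 widths thus depended on where the caller split the stretch. Ring1b peaks ran from 622 to 2365 bp around a list median of 1178 bp, and those on the ESC Mel18 peaks of Lef1 and Bcl11a, at 1749 to 2365 bp, were above it. The Fst Ring1b peak, at 777 bp, was wider than 20.1% of Ring1b peaks. RYBP peaks ran from 557 to 4272 bp around a median of 1476 bp. The RYBP peak on the leading Bcl11a peak was wider than 97.2% and the longer one at Fst wider than 95.3% of all RYBP peaks.

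**Figure D3:**
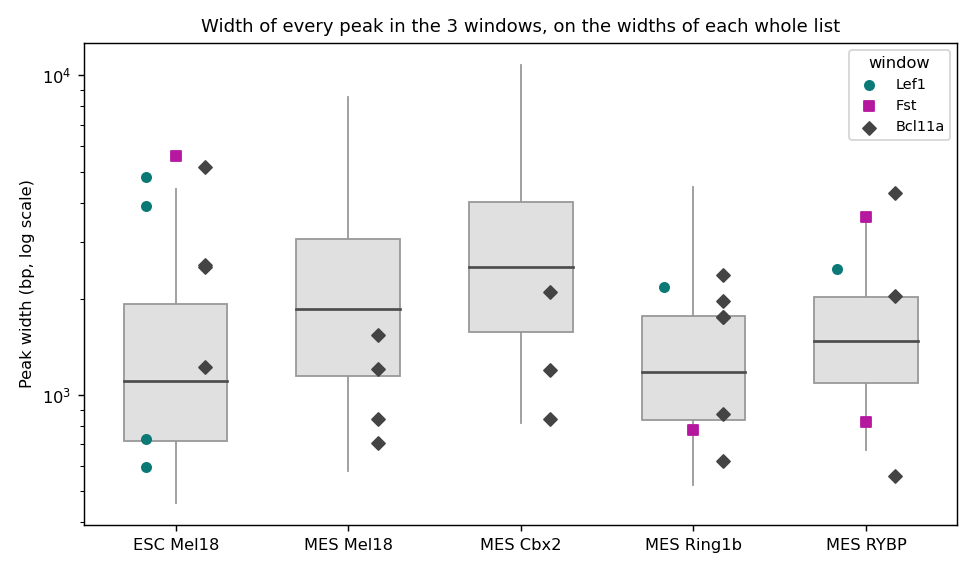
Width of each of the 30 peaks (y axis, bp, log scale) by list, with 1 symbol per window; grey boxes run from the lower to the upper quartile of the whole list, the line in each box is its median, and whiskers run from its 5th to its 95th percentile. The leading ESC Mel18 peaks, at 4797 to 5607 bp, lie above the whisker, and the MES Mel18 and Cbx2 symbols lie below their medians.

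Scores at these loci ranged from near the lowest of a MES list to above 78.7% of one. The Lef1 Ring1b and RYBP peaks scored 134 and 139 on the authors' scale, above 57.7% of Ring1b and 55.7% of RYBP peaks. At Bcl11a, Ring1b peaks scored from 69.4 to 207, and RYBP peaks from 54.7 to 259. The lowest of these were above 25.2% of Ring1b and 6.63% of RYBP peaks, and the highest Ring1b peak was above 70.8% of its list. MES Mel18 peaks there scored above 1.92 to 51.8% of their list, and Cbx2 peaks above 26.9 to 59.7% of theirs. The RYBP peak of 259, above 78.7% of its list, lay at the border of the middle and the leading ESC peak. The scale of the score is not stated, and scores were not compared between lists.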

How the data were processed

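Of the 15 samples in the series, 6 were ChIP-seq and 9 RNA-seq. Peak lists of 5 ChIP-seq samples were used, and the IgG and RNA-seq samples were not analysed here. Chromatin was precipitated with 5 ug of antibody per the labels' protocols. The deposited lists give a position and 1 score per peak, and the score is the authors' own value on an unstated scale. Peak names carry the MACS tag per the file headers and names, and the mm9 build, Bowtie and TopHat are named in the submitters' processing notes, without versions. Caller settings and version, the control used and any pooling of replicates are not given in the sources used here.

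Starts were converted to count from 1. Peaks shared a site when they overlapped by at least 1 bp, and the leading peak of a locus was its highest-scoring ESC-only Mel18 peak. Long domains were ESC Mel18 peaks joined within 10000 bp, 5 or more per domain. The windows, members and alternatives were chosen with earlier results of these data known. Every peak in the windows is named or counted. No mm9 annotation was used, so no exon, intron or promoter is assigned to peaks, and other genes of the Lef1, Fst and Bcl11a families were not examined. No test was run, since each list has 1 sample and the measured values chose the loci.

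The alternatives were the better-scoring 50% of every list, peaks joined within 1 kb, overlap of 50% of the shorter peak, 3679 peaks per list, and centres no more than 1 kb apart. Overlaps were computed with pandas 2.3.3 and numpy 2.4.6 in Python 3.11.15, intervals with scipy 1.17.1 and plots with matplotlib 3.10.9. Overlap calls were checked with bedtools 2.31.1 (0 differing peaks in 20 ordered pairs of lists) and on 1000 simulated peaks (0 wrong calls).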

Additional observations from a re-analysis of the deposited data

How the results depend on the processing

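No paired analysis was possible because there was a single sample in every group. Of 65 recomputed values, 40 counted as unmoved and 25 as moved. A number of subunits or a width ratio counted as moved on any change, and a share when it left its exact binomial interval. For covered bases that interval is narrow, since bases of 1 peak are not independent. The cause was not tested beyond the construction of each setting. Requiring 50% of the shorter peak moved 0 of 6 values. With peak centres within 1 kb, the leading Fst and Bcl11a peaks each had 1 subunit, RYBP, and Ring1b was at 37.4% of ESC-only peaks of the highest quartile, against 61.5%. With the upper 50% of each list by score, Fst had 1 subunit and RYBP covered 0% of its ESC Mel18 bases. At Bcl11a MES Mel18 covered 0% and Ring1b 31.0%. Ring1b and RYBP covered 24.99 and 28.6% at Lef1. At Lef1, here and with 3679 peaks per list, the ESC peaks of 594 and 730 bp dropped out. The same covered bases were thus set over fewer ESC Mel18 bases. With peaks joined within 1 kb, Lef1 had 2 and Bcl11a 3 subunits, and RYBP covered 80.5% at Fst. MES Mel18 and Ring1b covered 21.2 and 72.4% at Bcl11a. The relative width of the widest MES peak was 0.805 at Fst (RYBP) and 0.992 at Bcl11a (Ring1b). At Bcl11a the widest MES peak was RYBP as called but Ring1b once joined, at 8970 bp against 6444 bp for RYBP. With 3679 peaks per list, Fst and Bcl11a each had 1 subunit, Ring1b at Fst and RYBP at Bcl11a. In that setting Ring1b and RYBP covered 24.99 and 28.6% at Lef1, RYBP 0% at Fst, and MES Mel18 and Ring1b 7.16 and 10.3% at Bcl11a, and Ring1b and RYBP were at 34.0 and 64.0% of the ESC-only peaks, against 61.5 and 74.3%. In all 5 settings Cbx2 overlapped the leading peaks of Lef1 and Fst in 0 cases, an outcome fixed in advance. The nearest Cbx2 peaks lay 334.3 and 1419 kb away, beyond the reach of any setting. Depth was unknown, so a subunit without a peak may have been below the caller's threshold.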
